A study of Mus musculus with 4 samples.

Results

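Cells reshape the matrix around them with secreted and membrane-bound proteases, and the transcripts of 38 such genes and their inhibitors were compared between unstimulated L929 cells and unstimulated NIH3T3 cells. The 38 genes were chosen by name, as matrix metalloproteinases, ADAM and ADAMTS proteases, metalloproteinase inhibitors, the plasminogen system and 3 other matrix proteases. Of these, 35 had at least 1 probe set of their own among the 18193 genes that the array annotation names, and signals for Mmp15, Adamts2 and Serpine2 were not analysed here. L929 is a fibroblast line from mouse connective tissue, taken in the series as sensitive to necrosis, and NIH3T3 is a fibroblast line from mouse embryos, taken as sensitive to apoptosis. Total RNA of each line, with no agent given, was hybridised to 2 Affymetrix Mouse Genome 430 2.0 arrays. Each line is 1 established culture line, so a difference belongs to the pair of lines and cannot be assigned to the way the cells die. Whether the replicates came from separate cultures is not stated in the labels, so the p-values rest on the spread between these arrays alone, and that spread may be technical.

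Matrix metalloproteinases, or MMPs, are zinc enzymes made as inactive precursors that cut collagens, gelatin and other matrix proteins. ADAMs are membrane-anchored relatives that release the outer parts of cell surface proteins, and the secreted ADAMTS enzymes cut proteoglycans and trim procollagens. TIMPs and the membrane protein RECK inhibit these enzymes, while plasmin, made from plasminogen by the activators tPA and uPA, degrades fibrin and activates several MMP precursors. Fibroblasts are a main source of these enzymes and inhibitors in connective tissue.

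Values are MAS5 signals in arbitrary units, scaled so that all 4 arrays had the same trimmed mean. The trimmed means as deposited stood at 142 and 134.5 on the L929 arrays, against 135.4 and 210.3 in NIH3T3, so NIH3T3 replicate 2 was the brightest array before scaling. Over the tested probe sets, the replicate arrays of L929 correlated with r = 0.982 and those of NIH3T3 with r = 0.981, and arrays of different lines with r from 0.835 to 0.843; probe sets are not independent replicates. Of 12 fibroblast markers, 10 lay above the filter level of 17.3 on both L929 arrays and 12 on both NIH3T3 arrays. Of the 12, 1 was called higher in L929 (Pdgfrb, 1.99-fold), 5 lower and 6 not called. The lower ones included Thy1, Dcn and Lum, at most 30.0 in L929 and at least 548 in NIH3T3 on the probe sets used, while Vim, S100a4, Col1a2 and Col3a1 were bright in both lines and not called. The summed signal of 8 leukocyte markers was 252 to 273 in L929 and 446 to 449 in NIH3T3, with Ptprc and Itgam below the filter level on all 4 arrays. Cd14 made up most of that gap, at 54.2 and 41.3 in L929 and 238 and 215 in NIH3T3, and Lyz2 was called 2.53-fold higher in L929. Of 6 epithelial markers 2 were above the level on both arrays of each line, and of 5 endothelial markers 1 was in L929 and 0 in NIH3T3. The part of these markers in the results was not tested. In RNA from whole cultures, fewer cells of a type and less RNA per cell cannot be told apart.

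The largest differences among the members ran both ways. The gelatinase Mmp2, the meltrin Adam12 and the proteoglycan-cutting Adamts1 were lower in L929, together with the inhibitors Timp3 and Reck and the plasminogen activator Plat. The collagen-degrading cysteine protease Ctsk, the membrane-bound Mmp23 and the serine protease Htra1 were higher in L929. Testing required signals above the filter level on both L929 arrays or on both NIH3T3 arrays, and a gene was called at a limma adjusted p under 0.05 with a fold above 1.5. Of the 35 members with a probe set, 30 passed the filter, and L929 was called higher for 7 and lower for 13. Over all 12676 tested genes 34.9% were called, 17.3% higher and 17.7% lower. The arrays of the lines did not overlap for 26 of the 30 members, against 73.8% of all tested genes. Passing the filter through 1 line favours a brighter signal there, and fixes it where both arrays of the other line lie below the level. The 20 members above the level on all 4 arrays were therefore also counted. Of these 20, 5 were higher and 8 lower, where 31.5% of all 10296 such genes were called. The median log2 difference was -0.49 over the 30 members and 0.01 over all tested genes. Folds were fitted after adding an offset of 8.01 to each signal, which understates the change of dim genes.

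**Figure D1:**
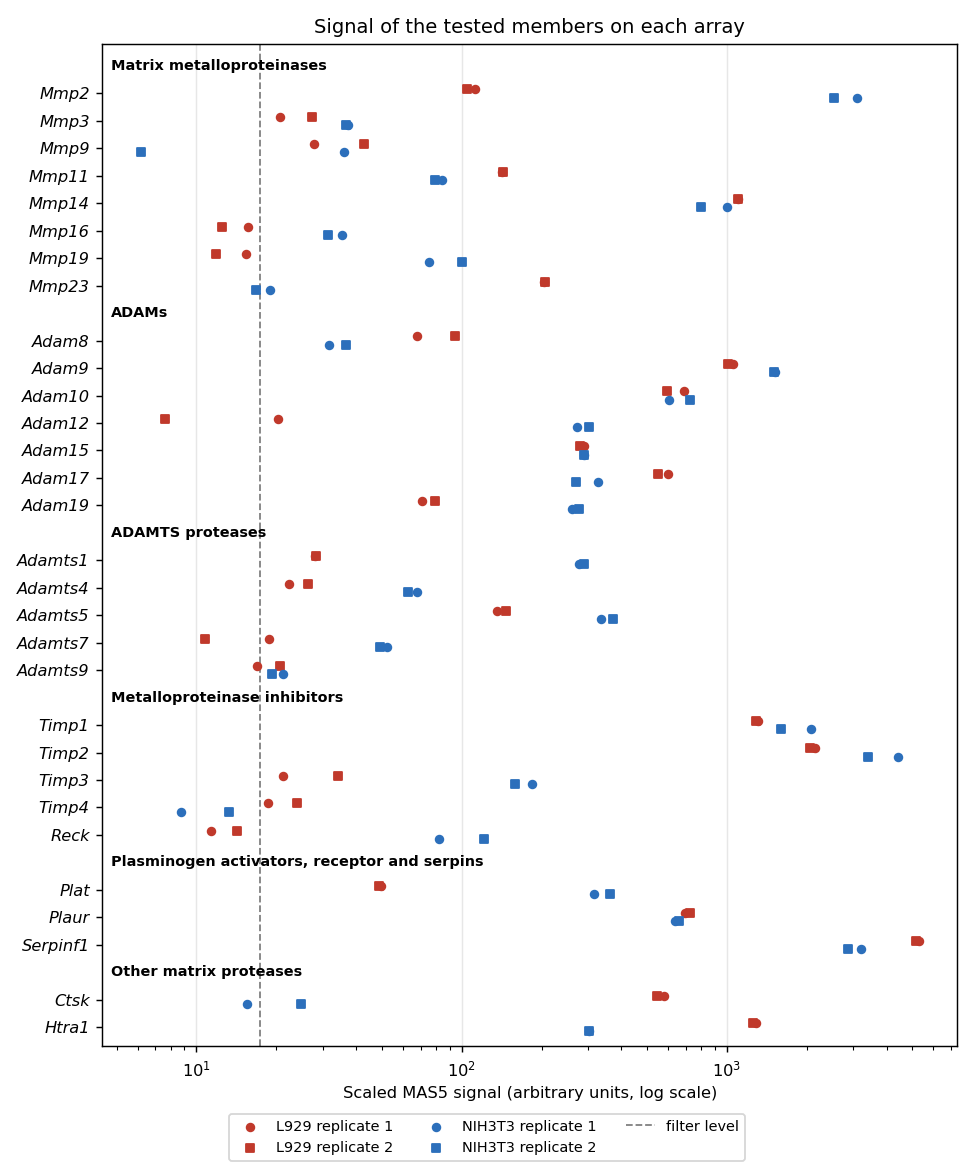
Scaled MAS5 signal (arbitrary units, log scale) of the 30 tested members by role, with 1 point per array, L929 in red and NIH3T3 in blue; the dashed line is the filter level of 17.3. Mmp2, Adam12, Adamts1 and Plat lie far lower in L929, and Ctsk, Mmp23 and Htra1 far higher in L929, while Adam10, Adam15 and Plaur lie close together in both lines.

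Among the MMPs, Mmp2 stood furthest apart. Mmp2, gelatinase A, cuts denatured collagen and basement membrane collagen, and it is activated at the cell surface by MMP14 with the help of TIMP2. The probe set that stands for the gene, the one with the higher mean log2 signal, measured 112 and 105 in L929 and 3087 and 2532 in NIH3T3. L929 was 24.1-fold lower (log2 difference -4.59, 95% interval -4.88 to -4.31, limma adjusted p = 6.4e-08). The other Mmp2 probe set, at 72.5 and 87.4 in L929 and 3197 and 2867 in NIH3T3, was 34.6-fold lower. Thus neither array of L929 came near the NIH3T3 range on either probe set.

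The activator of MMP2 gave no call. Mmp14, a membrane-anchored collagenase, measured 1100.2 and 1100.6 in L929 and 1002 and 800.1 in NIH3T3, a log2 difference of 0.30 (95% interval 0.00 to 0.59, limma adjusted p = 0.096). Its other probe sets stood at 0.06 and -0.24, and all 3 were bright in both lines. On the brightest set both L929 arrays lay above both NIH3T3 arrays.

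Mmp19 and Mmp16 were also lower in L929. Mmp19, a secreted MMP of many tissues, measured 15.4 and 11.9 in L929, both below the filter level, and 75.1 and 101 in NIH3T3. It was at least 5.03-fold lower (limma adjusted p = 0.00036), where "at least" sets each array below 17.3 at that level. Its other probe set was called lower too, with a log2 difference of -2.50. Mmp16, a membrane-anchored MMP, was dim: 15.6 and 12.5 in L929 against 35.4 and 31.3 in NIH3T3, at least 1.93-fold lower (limma adjusted p = 0.030). That call did not survive the omission of any single array (adjusted p = 0.067 to 0.14), and the other 3 Mmp16 probe sets were too dim to test.

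Mmp23 and Mmp11 were the MMPs called higher in L929. Mmp23, an MMP anchored in the membrane by its N-terminal end, measured 204 and 205 in L929 and 18.9 and 16.8 in NIH3T3, where replicate 1 alone passed the filter level. The excess in L929 was at least 11.3-fold (limma adjusted p = 9.5e-06). On its other probe set the signals were 157 and 167 in L929 and 2.79 and 5.36 in NIH3T3. Mmp11, stromelysin 3, which furin-type enzymes activate inside the cell, measured 141 and 143 in L929 and 84.5 and 79.2 in NIH3T3. The 1.67-fold excess in L929 passed the test (limma adjusted p = 0.0063), and it was not called without array scaling (adjusted p = 0.52) or with an offset of 50, where its fold fell under the threshold.

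The MMP genes measured from the cluster on chromosome 9 were dim in both lines. In the RefSeq gene order of GRCm38.p6, Mmp13, Mmp12, Mmp1b, Mmp3, Mmp1a, Mmp10, Mmp8, Mmp27, Mmp20 and Mmp7 follow one another with 0 other protein-coding genes between them. This cluster holds collagenases, stromelysins and matrilysin, several of which fibroblasts are known to induce on stimulation. Mmp3, stromelysin 1, measured 20.7 and 27.3 in L929 and 37.1 and 36.7 in NIH3T3, a log2 difference of -0.50 that did not pass the test (95% interval -1.13 to 0.13, limma adjusted p = 0.18). Mmp10, stromelysin 2, measured 13.2 and 22.3 in L929 and 11.1 and 3.32 in NIH3T3. Mmp12, the macrophage elastase, measured 2.42 and 16.2 in L929 and 2.57 and 17.9 in NIH3T3. Mmp10 and Mmp12 were too dim to be tested, as was Mmp13, a collagenase of rodents, at 3.99 and 2.42 in L929 and 3.07 and 4.31 in NIH3T3. Signals for Mmp27 were not analysed here. Of the other neighbours that are not members, Mmp1a, Mmp1b, Mmp8 and Mmp20 did not exceed 17.8 on any array. Mmp7, matrilysin, reached 36.0 in L929 and 8.04 in NIH3T3. Its call was lost without L929 replicate 2 and without either NIH3T3 array.

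The 4 members of the cluster share sequence features close to their start sites. The stretches below cover the 80 bases before the RefSeq start site (GRCm38.p6, plus strand) and are shown because each holds the letters TGANTCA, the motif bound by AP-1, a dimer of FOS and JUN proteins. Plaur, the receptor of uPA, is added because it was the only other member with such a match in that span. Capitals mark TGANTCA and, where present, TATAAA, the TATA box. They are chr9:7445742-7445821 for Mmp3, chr9:7502262-7502341 for Mmp10, chr9:7347294-7347373 for Mmp12 (the start site with the match, of 2 listed), chr9:7272434-7272513 for Mmp13 and chr7:24462403-24462482 for Plaur.
Mmp3: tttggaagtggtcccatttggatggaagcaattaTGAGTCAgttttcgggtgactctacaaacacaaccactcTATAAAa
Mmp10: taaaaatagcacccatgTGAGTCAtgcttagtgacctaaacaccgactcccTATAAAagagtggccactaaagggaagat
Mmp12: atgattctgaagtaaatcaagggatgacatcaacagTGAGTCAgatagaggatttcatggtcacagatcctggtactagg
Mmp13: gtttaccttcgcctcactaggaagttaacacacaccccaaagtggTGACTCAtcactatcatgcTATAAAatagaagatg
Plaur: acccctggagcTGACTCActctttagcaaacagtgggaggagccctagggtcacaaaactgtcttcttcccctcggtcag
The AP-1 match began at -46 in Mmp3, -63 in Mmp10, -44 in Mmp12, -35 in Mmp13 and -69 in Plaur, counted in bases from the start site.

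Promoter windows of 300 bases, 250 before and 50 after the start site, were held for 26 members in 30 windows, Mmp15 and Serpine2 among them. The motifs were searched on both strands, TGANTCA for AP-1, CAGGAA for the family of ETS factors and TATAAA for the TATA box, with exact matches only, and no matches of different motifs overlapped in the members' windows. TGANTCA stood in 6 of the 30 windows (20%), the sixth being a window of Adam19, against 7.81% of all 32851 windows. The windows of Mmp3, Mmp10, Mmp12 and Mmp13 come from a single gene cluster, so the 6 are not independent cases. Outside that cluster only Plaur and Adam19 held a match, and no enrichment was tested. CAGGAA stood in 36.7% of the members' windows and 30.6% of all windows, and TATAAA in 16.7% and 13.6%. The stretches printed were chosen after the matches were seen, and a match describes letters in a window and not a bound site.

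**Figure D2:**
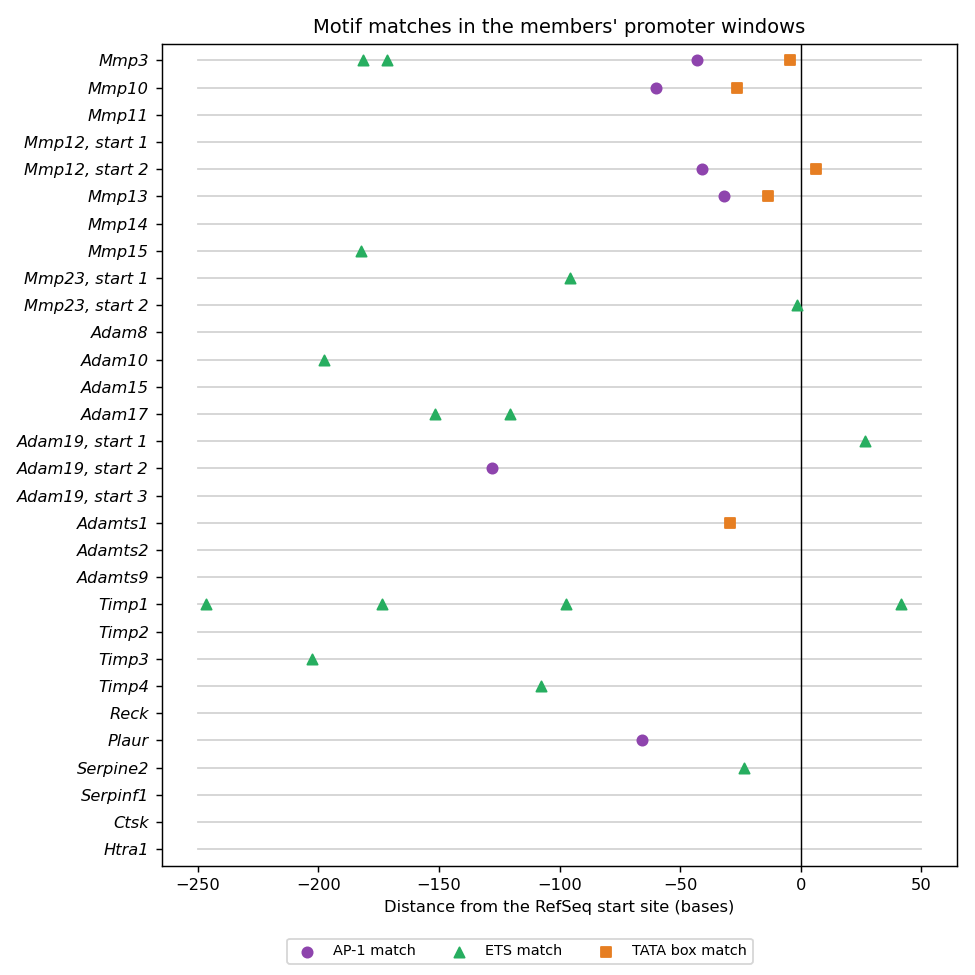
Positions of the AP-1 (circles), ETS (triangles) and TATA box (squares) matches in the 30 promoter windows of 26 members, in bases from the RefSeq start site; the grey lines are the windows, and genes with several start sites have several rows. The AP-1 matches of Mmp3, Mmp10, Mmp12, Mmp13 and Plaur lie between -69 and -29.

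The gelatinase Mmp9, which acts on much the same substrates as Mmp2, was not settled. It measured 27.8 and 42.7 in L929 and 35.9 and 6.19 in NIH3T3, so the lines overlapped and NIH3T3 replicate 2 alone was low. The log2 difference of 0.77 had an interval of -0.38 to 1.92 (limma adjusted p = 0.25). Without NIH3T3 replicate 1 it was 1.58 and called (adjusted p = 0.023), and without NIH3T3 replicate 2 it was -0.05. The second Mmp9 probe set was too dim to test, at 1.17 and 1.23 in L929 and 10.7 and 6.46 in NIH3T3.

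**Figure D3:**
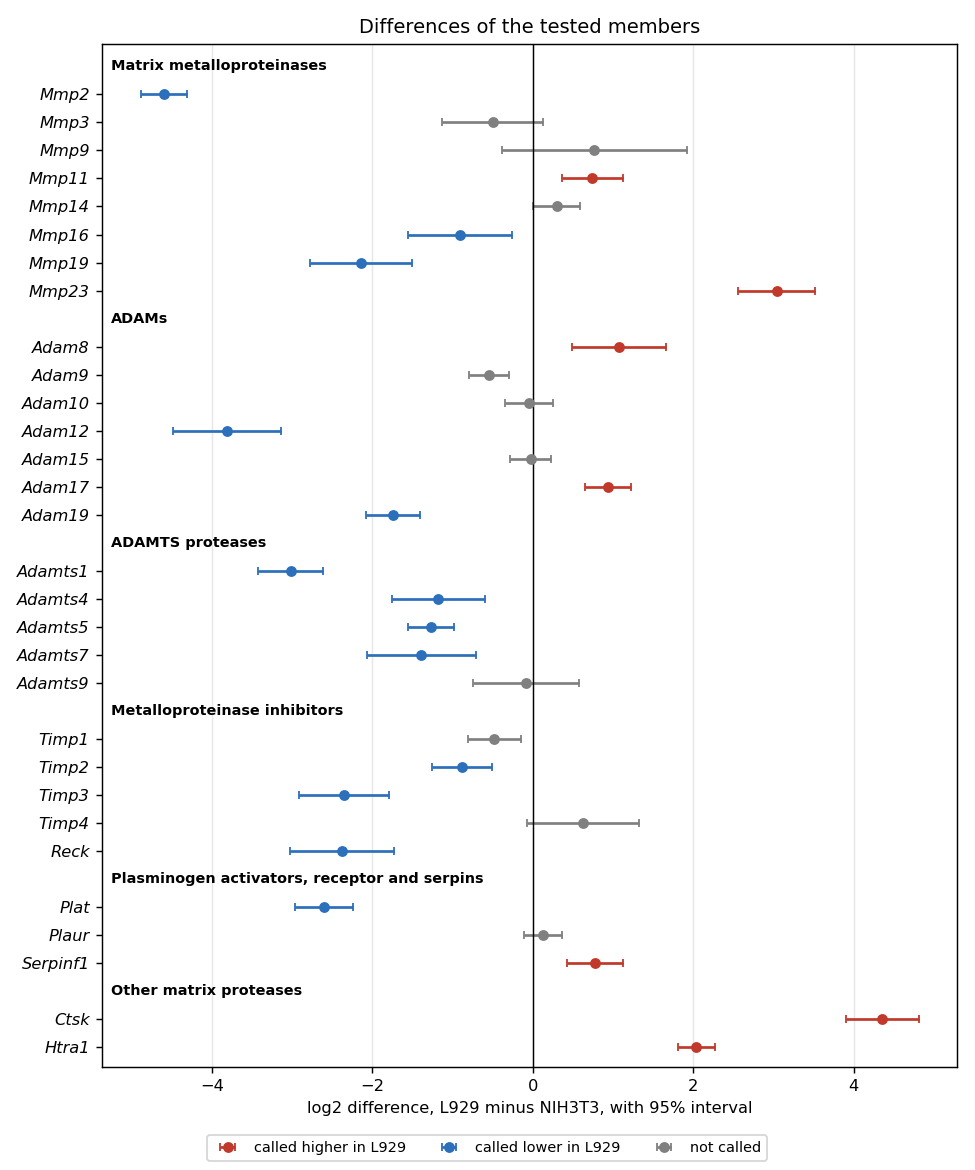
Log2 difference, L929 minus NIH3T3, of the 30 tested members by role, with the 95% interval of the limma fit (n = 2 arrays per line); red marks members called higher in L929, blue those called lower and grey those not called. The ADAMTS genes and inhibitors called are all lower in L929, and Ctsk at 4.36 and Mmp2 at -4.59 are the extremes.

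All 7 ADAMs were tested, and L929 was called higher for 2 and lower for 2, against 17.3% and 17.7% of all tested genes, with a median log2 difference of -0.05. Adam12, meltrin alpha, a protease of mesenchymal and muscle precursor cells, measured 20.3 and 7.64 in L929 and 272 and 301 in NIH3T3. L929 replicate 1 alone passed the filter level, and L929 was at least 15.3-fold lower (limma adjusted p = 1.8e-05). Its other probe set measured 1.76 and 1.08 in L929 and 127 and 98.9 in NIH3T3, so both sets put L929 near background. Adam19, meltrin beta, its close relative, measured 70.7 and 79.3 in L929 and 261 and 277 in NIH3T3, 3.34-fold lower (limma adjusted p = 3.4e-05), and its other probe set was called lower too.

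Adam17, the enzyme that releases TNF and several EGF receptor ligands from the cell surface, was higher in L929. It measured 599.9 and 549.7 in L929 and 325 and 269 in NIH3T3, a 1.92-fold difference (log2 0.94, 95% interval 0.65 to 1.22, limma adjusted p = 0.00043). All 3 of its probe sets were called higher, with log2 differences from 0.77 to 0.94. Adam8, known from leukocytes and activated cells, measured 68.0 and 94.7 in L929 and 31.5 and 36.5 in NIH3T3, 2.11-fold higher (limma adjusted p = 0.0085). The Adam8 call was lost without L929 replicate 2 (adjusted p = 0.067), and neither Adam17 (adjusted p = 0.32) nor Adam8 (0.18) was called without array scaling.

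Adam10 and Adam15 lay close together in the lines, and Adam9 was lower in L929 but not called. Adam10, which cuts Notch receptors and many other surface proteins, measured 691 and 594 in L929 and 605 and 729 in NIH3T3, with a log2 difference of -0.05 (95% interval -0.35 to 0.25). Adam15, found in many cell types, measured 289.9 and 280.1 in L929 and 289 and 290.3 in NIH3T3, with a log2 difference of -0.02 (95% interval -0.28 to 0.23). The 4 Adam15 probe sets ranged from -0.14 to -0.02. Adam9 measured 1059 and 1012 in L929 and 1521 and 1500.0 in NIH3T3. Its arrays did not overlap and it passed the p threshold (limma adjusted p = 0.0037), but its fold of 1.46 lay under the threshold; with quantile normalization it was called, at -0.60.

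The ADAMTS proteases that were called were all lower in L929. Lower calls numbered 4 of 5 tested, where 17.7% of all tested genes were called lower, and higher calls 0, with a median log2 difference of -1.27. Of the genes called, Adamts7 passed the filter through NIH3T3 only, which favoured a lower value in L929. Adamts1, Adamts4 and Adamts5 lay above the level on all arrays. Adamts1, which cuts the proteoglycans versican and aggrecan, measured 28.0 and 28.2 in L929 and 278 and 289.6 in NIH3T3, 8.08-fold lower (limma adjusted p = 3.7e-06). Adamts5, an aggrecan-cutting enzyme and the next protein-coding gene to Adamts1 on chromosome 16, measured 136 and 146 in L929 and 334 and 372 in NIH3T3, 2.41-fold lower (limma adjusted p = 8.1e-05). Of the 3 tested Adamts5 probe sets, 2 were called lower, and the third stood at -0.68 with an interval of -1.38 to 0.02.

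The other ADAMTS genes were dimmer. Adamts4, a further aggrecan-cutting enzyme, measured 22.4 and 26.4 in L929 and 67.9 and 62.8 in NIH3T3, 2.27-fold lower (limma adjusted p = 0.0053). Adamts7, known for cutting cartilage oligomeric matrix protein, measured 18.8 and 10.8 in L929 and 52.3 and 49.2 in NIH3T3. It was at least 2.81-fold lower, L929 replicate 1 alone being above the filter level (limma adjusted p = 0.0054). Adamts9, which cuts versican, lay near the filter level in both lines, at 17.0 and 20.7 in L929 and 21.2 and 19.2 in NIH3T3. The calls of Adamts1, Adamts4, Adamts5 and Adamts7 were kept in all 16 alternative settings.

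The promoters of Ctsk and Adamts1 are printed as the called members with the largest difference in each direction among those with 1 window. Both show the 250 bases before the RefSeq start site of GRCm38.p6, chr3:95498960-95499209 on the plus strand for Ctsk and chr16:85803114-85803363 on the minus strand for Adamts1. Capitals mark the single match of the 3 motifs searched, a TATAAA in Adamts1.
Ctsk: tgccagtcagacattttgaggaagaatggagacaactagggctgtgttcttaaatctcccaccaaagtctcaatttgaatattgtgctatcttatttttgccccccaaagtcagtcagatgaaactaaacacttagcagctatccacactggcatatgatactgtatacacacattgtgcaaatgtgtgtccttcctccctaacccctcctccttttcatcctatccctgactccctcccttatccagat
Adamts1: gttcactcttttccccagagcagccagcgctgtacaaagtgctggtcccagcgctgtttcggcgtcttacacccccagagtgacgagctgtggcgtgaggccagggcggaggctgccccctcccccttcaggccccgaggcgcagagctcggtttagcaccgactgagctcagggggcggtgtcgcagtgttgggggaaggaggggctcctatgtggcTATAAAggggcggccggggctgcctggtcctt
The Adamts1 match runs from -32 to -27 relative to the start site.

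All 5 metalloproteinase inhibitors were tested, and L929 was called lower for 3, where 17.7% of all tested genes were, and higher for 0. The arrays of the lines did not overlap for any of the 5, which is also so for 73.8% of all tested genes. Reck and Timp4 passed the filter through 1 line, with both arrays of the other line below the level. The filter therefore fixed their separation and its direction, and only Timp1, Timp2 and Timp3 were free to overlap. Timp3, which binds to the matrix and inhibits ADAM17 as well as MMPs, measured 21.2 and 34.3 in L929 and 184 and 159 in NIH3T3, 5.09-fold lower (limma adjusted p = 1e-04). Its 4 probe sets were all called lower, but their log2 differences spread from -4.49 to -1.66. The set at -4.49 measured 3.20 and 1.10 in L929 and 229 and 208 in NIH3T3. Reck, the membrane-anchored inhibitor of several MMPs, measured 11.3 and 14.2 in L929 and 82.1 and 122 in NIH3T3, at least 5.79-fold lower (limma adjusted p = 0.00023).

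Timp2 and Timp1 were bright in both lines. Timp2, the inhibitor that also takes part in MMP2 activation, measured 2145 and 2058 in L929 and 4403 and 3418 in NIH3T3, 1.84-fold lower (limma adjusted p = 0.0023). All 5 tested Timp2 probe sets were called lower, from -1.25 to -0.88 on the log2 scale, although the call of the brightest was lost without L929 replicate 2 (adjusted p = 0.052). Timp1, an inhibitor of most secreted MMPs, measured 1311 and 1288 in L929 and 2071 and 1595 in NIH3T3. Its 1.40-fold difference lay under the fold threshold (limma adjusted p = 0.025), and without NIH3T3 replicate 2 it was called at -0.67. Timp4, the least widely expressed TIMP, measured 18.7 and 24 in L929 and 8.74 and 13.3 in NIH3T3, a log2 difference of 0.63 that did not pass the test (95% interval -0.07 to 1.33, limma adjusted p = 0.13).

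Counted by probe set, the members had 55 tested, of which 12 were called higher and 25 lower in L929, where 31.6% of all 27438 tested probe sets were called.

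**Figure D4:**
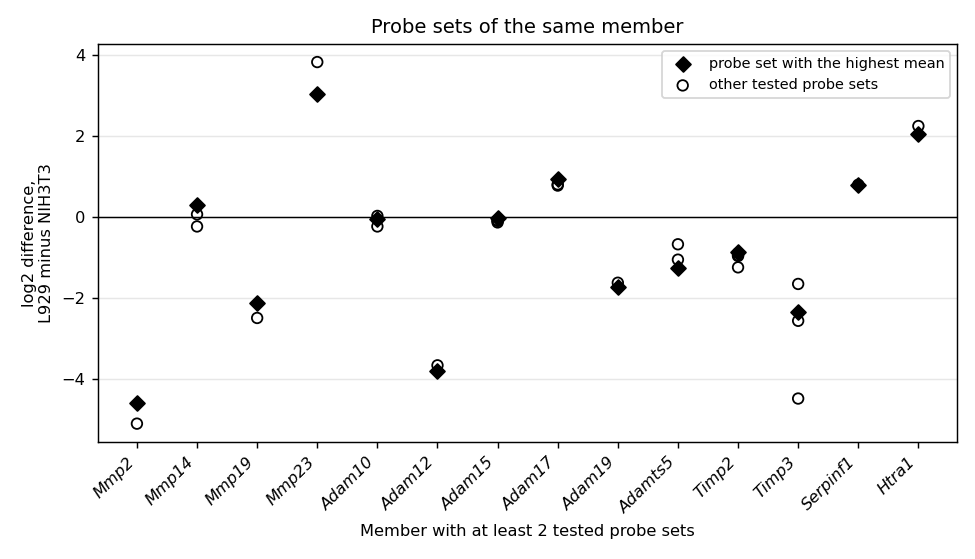
Log2 difference, L929 minus NIH3T3, of every tested probe set of the 14 members with at least 2 of them. Diamonds are the probe set with the highest mean log2 signal, which stands for the gene, and circles the others. For 12 of the 14 members all probe sets have the same sign, Mmp14 and Adam10 being the exceptions, and Timp3 shows the widest spread, from -4.49 to -1.66.

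In the plasminogen system, the activator differed and the receptor did not pass the test. Plat, which encodes tPA, measured 49.6 and 48.6 in L929 and 315 and 364 in NIH3T3, 6.07-fold lower in L929 (log2 -2.60, 95% interval -2.96 to -2.24, limma adjusted p = 4.5e-06). Plau, which encodes uPA, was too dim to test on both of its probe sets. The brighter of them measured 1.45 and 10.5 in L929 and 17.1 and 9 in NIH3T3. Plaur, the surface receptor that holds uPA, measured 696 and 725 in L929 and 637 and 662 in NIH3T3, with a log2 difference of 0.13 (95% interval -0.11 to 0.36, limma adjusted p = 0.34).

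Serpinf1, which encodes the secreted serpin PEDF, was higher in L929. PEDF has the fold of a protease inhibitor but is known mainly as an inhibitor of vessel growth. It measured 5281 and 5151 in L929 and 3196 and 2870.3 in NIH3T3, 1.72-fold higher (limma adjusted p = 0.0034), and the second probe set gave 1.73-fold. The Serpinf1 call was lost without L929 replicate 1 (adjusted p = 0.075), without L929 replicate 2 (0.067) and without array scaling (0.10).

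The 3 remaining matrix proteases belong to other enzyme classes. Ctsk, cathepsin K, is a cysteine protease that degrades fibrillar collagen and is best known from osteoclasts. It measured 579.7 and 544 in L929 and 15.5 and 24.8 in NIH3T3, at least 27.2-fold higher in L929 (limma adjusted p = 9.5e-07). NIH3T3 replicate 2 alone passed the filter level in that line. Htra1, a secreted serine protease that acts on matrix proteins and on TGF-beta signalling, measured 1292 and 1253 in L929 and 302.4 and 302.5 in NIH3T3. It was 4.12-fold higher (limma adjusted p = 1.5e-06), and 4.71-fold on its second probe set. Fap, fibroblast activation protein, a prolyl peptidase of activated fibroblasts, was too dim to test, at 4.87 and 4.98 in L929 and 17.2 and 1.95 in NIH3T3.

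The other genes of these pathways, listed by role and not members, numbered 108, of which 97 had a probe set and 70 were tested. Of these, 20 were called higher and 19 lower in L929, or 55.7%, where 34.9% of all tested genes were called, with a median log2 difference of 0.10. Among 12 tested plasminogen partners and other serpins, 3 were higher and 2 lower, or 41.7% called, near the 34.9% of all tested genes. Thbd, thrombomodulin, an anticoagulant receptor, measured 89.3 and 113 in L929 and 1532 and 1452 in NIH3T3, 13.8-fold lower, and F3, tissue factor, was 4.06-fold lower. Tfpi, the inhibitor of the tissue factor pathway, was at least 17.5-fold higher in L929, and Mrc2, a collagen uptake receptor that associates with the uPA receptor, was 2.76-fold higher. Serpinb6a, an intracellular serpin, was 1.89-fold higher. Plasminogen itself, Plg, was too dim to test. Anxa2 and S100a10, which form a cell surface receptor for plasminogen and tPA, were not called on their brightest probe sets, at 0.23 and 0.56 on the log2 scale. The other S100a10 probe sets were called higher, at 0.62 and 2.27. The gene was also called with its probe sets averaged, with probe sets ending in _x_at or _s_at left out, and without NIH3T3 replicate 1.

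Among 12 tested partners and targets of the sheddases, 3 were called higher and 4 lower, against 17.3% and 17.7% of all tested genes. Rhbdf1, a cofactor that brings ADAM17 to the surface, was 1.67-fold higher in L929, at 984 and 1004 in L929 and 603 and 585 in NIH3T3. Of the tetraspanins that accompany ADAM10, Tspan15 was 3.43-fold higher, Tspan14 was 1.68-fold higher and Tspan5 was 3.36-fold lower; the Tspan14 call was lost without NIH3T3 replicate 1. The EGF family ligands Nrg1, Ereg and Hbegf were lower, at least 6.59-fold, 2.24-fold and 2.10-fold.

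The remaining ADAM and ADAMTS genes were mostly dim, with 1 of 8 tested higher and 4 lower, against 17.3% and 17.7% of all tested genes. Each of the called ones passed the filter through its brighter line only, which favoured its direction. Adamts12 was at least 3.10-fold lower and Adamts6 at least 3.43-fold lower. Without either NIH3T3 array the other Adamts6 probe set, at -0.96 on all 4 arrays, had the higher mean log2 signal. It then stood for the gene and was not called, so that loss is not one of the 3.43-fold difference. The calls of Adam22, Adam23 and Adam33 were each lost without 2 or more of the arrays in turn. Of 10 tested cathepsins and cystatins 3 were higher and 4 lower, against the same shares of all tested genes. Ctsh, cathepsin H, was at least 27.6-fold higher and Cst6, a cystatin that inhibits cysteine cathepsins, at least 19.2-fold higher, and Ctsz was 1.95-fold higher. Ctso was 3.13-fold lower, at 32.5 and 29.0 in L929 and 107 and 119 in NIH3T3, and Ctsl, cathepsin L, was 2.59-fold lower. Ctsa and Ctsd, cathepsins A and D of the lysosome, were 2.12-fold and 1.90-fold lower. The other Ctsa probe set stood at 0.01, and the Ctsa call was lost when the probe sets of a gene were averaged.

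Procollagen and HTRA relatives also held large differences. Pcolce2, a protein that enhances the release of procollagen ends by BMP1-type proteases, measured 243 and 291 in L929 and 1.41 and 1.67 in NIH3T3, at least 15.4-fold higher, and Pcolce was 2.04-fold higher. They were the called genes among 7 tested activators and inducers, or 28.6%, where 34.9% of all tested genes were called. Furin, Pcsk7 and Bmp1 were not called on their brightest probe sets. The other tested Bmp1 probe set was called higher (0.86), and Pcsk7 was called without NIH3T3 replicate 2. Htra3, a paralogue of Htra1, was at least 7.83-fold higher. Another of its 3 probe sets stood at -0.25 and was not called. Without either L929 array that set had the highest mean log2 signal and stood for the gene. The gene was then not called, so that loss is not one of the 7.83-fold difference. Htra4 was at least 1.50-fold higher, a call that no omission of a single array kept. Of the prolyl peptidases, Dpp9 was 2.17-fold higher and Dpp7 2.32-fold lower. Of the 12 tested AP-1, ETS and RUNX factors, 4 were higher and 4 lower, against 17.3% and 17.7% of all tested genes. Runx1 was 3.16-fold lower on its brightest probe set, and of its 6 tested probe sets 3 were called lower. Fosl2, Jun and Ets1 were 3.08-fold, 2.37-fold and 1.67-fold lower, and Junb, Etv4, Fos and Ets2 were 1.87-fold, 1.80-fold, 1.69-fold and 1.67-fold higher. The other Etv4 probe set stood at -0.51 and was not called, and the Etv4 call was lost when the probe sets of a gene were averaged. Fosl1 was not called, at 0.07. The Fos call was lost without L929 replicate 2 or NIH3T3 replicate 1, and the Ets1 call without NIH3T3 replicate 2.

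**Figure D5:**
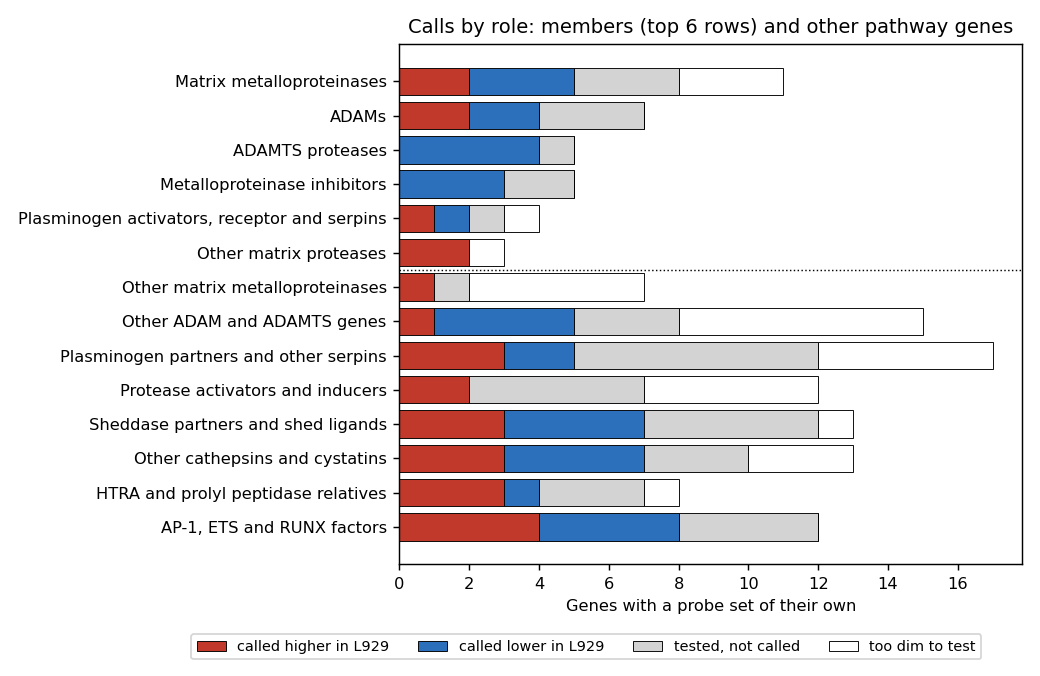
Number of genes with a probe set of their own in each role, split into those called higher in L929 (red), called lower (blue), tested but not called (grey) and too dim to test (white); the 6 rows above the dotted line are the members and the 8 below are the other pathway genes. The ADAMTS and inhibitor rows hold 4 and 3 lower calls and 0 higher ones.

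Array scaling set how many members were called higher. Without scaling, 3 members were called higher and 13 lower, Mmp11, Adam8, Adam17 and Serpinf1 being the calls lost, and all genes together had a median log2 difference of -0.26. Ctsk, Mmp23 and Htra1 were still called higher. Of the other pathway genes, Serpinb6a, Rhbdf1, Tspan14, Ctsz, Dpp9, Htra4, Mmp7, Junb, Etv4, Fos, Ets2 and Ets1 were not called without scaling. Over all genes, 31.2% of the calls were then higher in L929, against 49.5% with scaling.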

How the data were processed

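The authors deposited 1 signal intensity per probe set and array, summarised with MAS5 per the submitters' processing notes; its version, its scaling target and any genome build are not stated there. The 45037 probe sets that are no controls were scaled to equal trimmed means across arrays, with 2% trimmed from either end. An offset of 8.01 (25th percentile of scaled signals) was added before log2, and the filter level of 17.3 was the 40th percentile, not a measured detection limit. All 27438 tested probe sets were fitted with lmFit and eBayes of limma 3.58.1 (R 4.3.3) with a mean-variance trend. Each gene was represented by its brightest tested probe set, with Benjamini-Hochberg adjustment over 12676 genes. Thresholds follow the submitters' design text. Symbols come from 34945 probe sets with a unique one. Promoter windows are RefSeq's. Precision is limited by the number of arrays. The procedure was tested on simulated data. Members and lists were chosen with earlier results of these data known. Named genes are all members and, of each other list, up to 4 called genes per direction with the largest differences, and marker genes; uncalled genes of other lists were named after values were seen. Alternatives changed scaling, offset, filter, probe set rule, variance prior and replicates.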

Additional observations from a re-analysis of the deposited data

How the results depend on the processing

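Over 16 alternative settings the members called higher in L929 numbered 3 to 8 and those called lower 11 to 14, against 7 and 13. Leaving out 1 array in turn gave 5 to 8 higher and 11 to 13 lower, and 16 to 20 other pathway genes higher and 16 to 19 lower. Without array scaling, 3 members, 9 other pathway genes and 818 of all genes were called higher, against 7, 20 and 2192; the median of all genes then moved to -0.26. The other counts stayed within 1.5 times. The sign turned only for members that were not called: Plaur to -0.16 without scaling; Adam10 to 0.01 with median scaling, 0.06 without L929 replicate 2 and 0.08 without NIH3T3 replicate 2 (its lowest value with 1 array left out was -0.18); Adam15 to 0.04 with median scaling, 0.02 with quantile normalization and 0.00 without L929 replicate 2; Adamts9 to 0.02 without L929 replicate 1 (lowest -0.18); and Mmp9 to -0.05 without NIH3T3 replicate 2 (highest 1.58). The cause was not tested. Mmp16 was also not called with an offset of 50 or no filter, and was too dim to test with the filter at the 60th percentile. With the replicate block, 7 members were higher and 13 lower and no member's call changed. The deviations of same-numbered arrays correlated with r = 0.0138, so no shared deviation was seen. That value cannot show whether same-numbered samples were handled together. With no filter all 35 members were tested, and 7 were higher and 12 lower. Signals near 17.3 limit Mmp3, Mmp9, Mmp16, Adamts9 and Timp4.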
